A study of Mus musculus with 4 samples.

Results

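The AP-1 and immediate early genes described here are 10 in number: Fos, Fosb, Fosl2, Jun, Junb, Jund, Egr1, Ier2, Atf3 and Zfp36. They were read in total RNA sequenced from mice whose labels give a loss of Adar1, with or without a loss of Mavs. They were chosen by symbol, through the Ensembl transcript identifiers of the deposited isoforms, and all 10 were among the 33777 genes found in both liver libraries. Of these, 8 had at least 1 FPKM (fragments per kilobase of transcript, scaled to the mapped fragments of the library) in either liver library and were counted, beside 13868 counted genes in all. The groups were whole E11.5 embryos (embryonic day, strain label C57B16/N), genotype Adar1-/- or Adar1-/- Mavs-/-, and E15.5 embryonic livers (strain label C57B6/J) of the same genotypes. Each of the 4 groups had 1 library, and every animal was labelled Adar1-/-. No wild-type or Mavs-/- animal was analysed here. The sources used here do not say how the alleles were made or how many animals went into a library. With 1 library a group, every value below compares 2 libraries, no test was possible, and the bounds given with FPKM cover estimation within a library only.

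AP-1 is a family of paired leucine-zipper transcription factors. A JUN protein (JUN, JUNB or JUND) binds DNA as a pair with another JUN or with a FOS protein (FOS, FOSB or FOSL2), and related proteins such as ATF3 join the same network. Most of these genes are immediate early genes, which are switched on within minutes of a growth factor, cytokine or stress signal through MAP kinases, without new protein synthesis. Egr1 encodes a zinc finger transcription factor of the same class and Ier2 a small nuclear protein. Zfp36 encodes tristetraprolin, which binds AU-rich elements in mRNA and speeds their decay. In liver these genes are known to rise within the first hours after partial hepatectomy, and they also respond to handling and dissociation of tissue.

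Facts of the libraries bear on each result. The Adar product ADAR1 deaminates adenosine in paired RNA strands, and MAVS relays the signal of RIG-I and MDA5, sensors of viral and other double-stranded RNA. Under the Adar1-/- label, 0 of 8 reference isoforms of Adar were above 0, and under the Adar1-/- Mavs-/- label 3 of 8 were, with 2.81 FPKM between them. With assembled isoforms Adar had 5.56 FPKM (bounds 5.28 to 5.84) and 4.11 FPKM (bounds 3.86 to 4.36), the Adar1-/- label first. Mavs had 7.26 FPKM (bounds 6.64 to 7.88) and 9.96 FPKM (bounds 9.17 to 10.7) in the same order, so it was not lower under the label that gives its loss. The sources used here do not say which parts of the genes were deleted. The library of the Adar1-/- Mavs-/- label may go against its label, so libraries are named by label throughout. Embryos lacking ADAR1 usually die younger than these livers were, and the sources used here do not say how the livers were obtained. Hepatocyte markers such as Alb were abundant in both liver libraries, summing to 14069 and 15027 FPKM over 10 genes, the library of the Adar1-/- label first as in all pairs of values below. Coverage per FPKM, a measure that scales with depth, was 8.58 and 7.13 in liver. In bulk tissue, fewer cells of a type and less RNA per cell cannot be told apart.

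In E15.5 liver, most of these genes had lower levels under the Adar1-/- Mavs-/- label. Of the 8 counted, 3 (Junb, Jund and Ier2) were at least 2-fold lower on the log2 scale of FPKM plus 1, 0 were at least 2-fold higher, and 7 had a log2 ratio below 0. Over all counted genes, 9.76% were at least 2-fold lower, 6.56% at least 2-fold higher and 58% below 0. The median log2 ratio, Adar1-/- Mavs-/- over Adar1-/-, was -0.96 for the 8 counted members and -0.12 for all counted genes. The bounds of the libraries lay apart in the lower direction for 7 of the 8, against 42.9% of all counted genes, and in the higher direction for 0, against 28.4%. Bounds lie apart where the widest ratio they allow does not reach 0. The pseudocount of 1 compresses ratios of genes near 1 FPKM. With a pseudocount of 0.5 the count of lower members was 6, where 12.2% of all counted genes were lower. With reference isoforms only the count was 5 of 7, where 17.0% of all counted genes were lower. Folds given with the values of a gene below are of scaled FPKM without the pseudocount, so they exceed the fold of the log2 ratio.

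**Figure D1:**
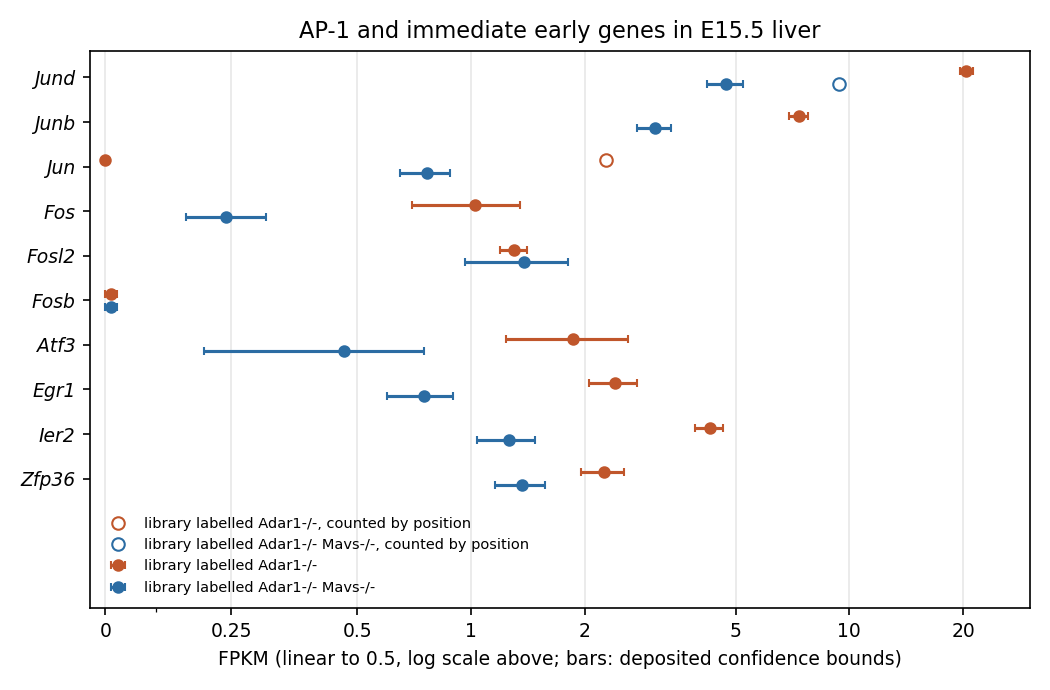
FPKM of the 10 genes (x axis, linear to 0.5 and logarithmic above) in the liver libraries labelled Adar1-/- (orange) and Adar1-/- Mavs-/- (blue), with the deposited confidence bounds combined over isoforms. Open circles give Jun and Jund when isoforms assembled from the reads are counted by position: Jun then moves from 0 to 2.27 FPKM under the Adar1-/- label and Jund from 4.72 to 9.39 FPKM in the other.

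Jund and Junb had the highest levels of the 10 genes in both liver libraries, and Jun lay below several others. Jund (chromosome 8, 73221638 to 73224515, mm9), whose product is known for a steadier level than the other JUN proteins, had 20.4 FPKM (bounds 19.6 to 21.2) under the Adar1-/- label and 4.72 FPKM (bounds 4.21 to 5.23) under the Adar1-/- Mavs-/- label. The log2 ratio was -1.91, and on the FPKM scale the level was 4.34-fold lower. That size depended on how isoforms were counted. Under the Adar1-/- Mavs-/- label an assembled isoform of 1668 bases over 58.0% of the gene, with 4.67 FPKM (bounds 4.18 to 5.15), was assigned to the overlapping antisense gene Gm11175. It covers nearly the same bases as the shorter Jund reference isoform, which had 18.4 and 4.72 FPKM. The identifier of that shorter reference isoform matched no symbol, and it was counted under Jund by overlap. Most of the Jund level under the Adar1-/- label, and all of it in the other library, thus rests on an isoform placed by overlap. The sources used here do not say if strand was kept, and without it reads of Jund and Gm11175 cannot be told apart. With the isoform under Gm11175 counted under Jund by position, the level was 9.39 FPKM (bounds 8.68 to 10.1). Jund was then 2.18-fold lower on the FPKM scale, with a log2 ratio of -1.05. Jund was thus lower either way, with bounds apart. The longer reference isoform, whose identifier matched Jund, had 1.98 FPKM under the Adar1-/- label and was listed at 0 in the other.

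Jun (chromosome 4, 94715725 to 94718913), the founding member of AP-1, changed direction with the counting. The shorter of its reference isoforms was placed under Jun by overlap, since its identifier matched no symbol. Both reference isoforms were listed at 0 under the Adar1-/- label, and the library of the Adar1-/- Mavs-/- label had 0.765 FPKM (bounds 0.648 to 0.881). Jun was below 1 FPKM in both libraries by this count and so was not counted. An assembled isoform of 3018 bases in a single exon, over 94.6% of Jun, was assigned to the antisense gene Junos in that first library, with 2.27 FPKM (bounds 2.09 to 2.46). Counted by position, Jun had 2.27 and 0.765 FPKM, a 2.98-fold lower level under the Adar1-/- Mavs-/- label and a log2 ratio of -0.89. A spliced assembled isoform that reaches far beyond Jun had 0.317 FPKM under Junos in that library and was not moved to Jun. By position, 9 members were counted, 3 were at least 2-fold lower and 8 were below 0. Of all 13740 genes counted by position, 9.29% were at least 2-fold lower, and their median log2 ratio was -0.12.

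**Figure D2:**
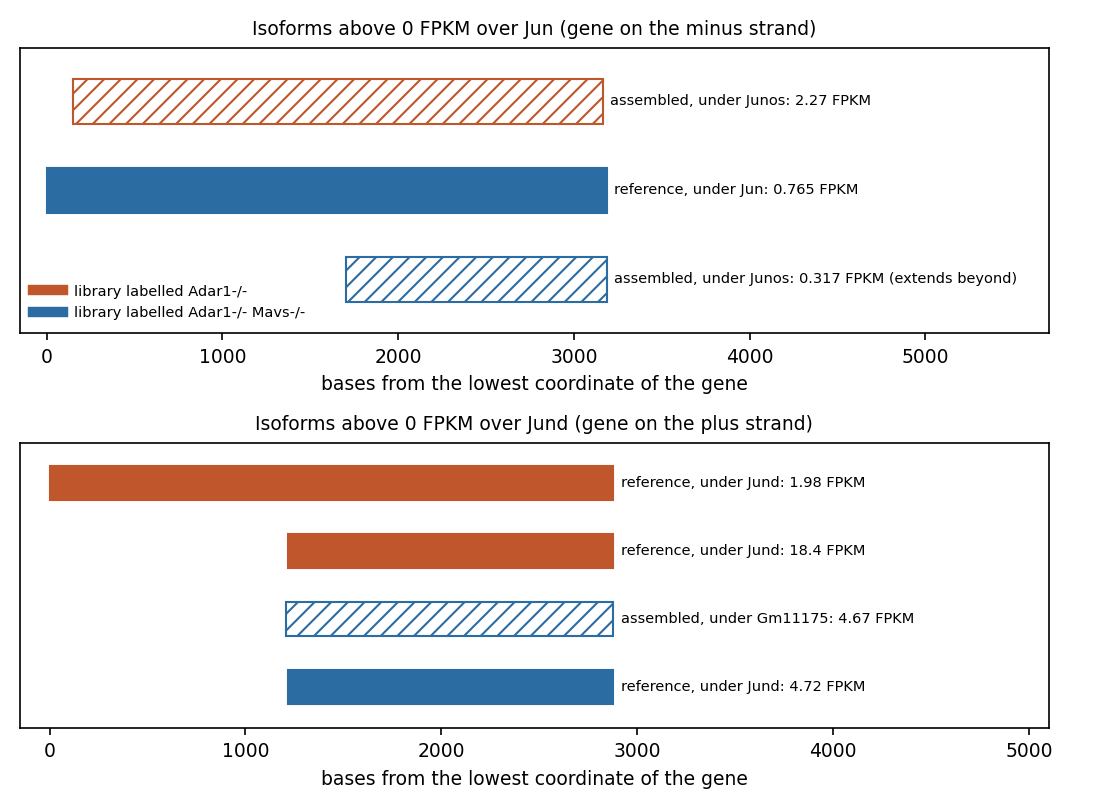
Isoforms above 0 FPKM over Jun and Jund in the liver libraries, drawn in bases from the lowest coordinate of each gene; filled bars are reference isoforms, hatched bars isoforms assembled from the reads, orange the library of the Adar1-/- label and blue the library of the Adar1-/- Mavs-/- label. Signal over Jun in the library of the Adar1-/- label stands wholly under Junos at 2.27 FPKM. Signal over Jund in the other library is split between Jund at 4.72 FPKM and Gm11175 at 4.67 FPKM. Its strand is not known.

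Junb (chromosome 8, 87500811 to 87502617), which often opposes JUN at shared sites, had a simpler structure. Its 1 reference isoform is a single exon of 1807 bases, no other isoform overlapped it in either liver library, and it had 7.35 FPKM (bounds 6.91 to 7.79) and 3.06 FPKM (bounds 2.74 to 3.37). The level was 2.42-fold lower under the Adar1-/- Mavs-/- label, with a log2 ratio of -1.05. Over the 12 alternatives the ratio ran from -1.25 to -1.01.

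The FOS genes were at low levels. Fos (chromosome 12, 86814840 to 86818223), the prototype of immediate early genes, had 1.02 FPKM (bounds 0.696 to 1.35) and 0.239 FPKM (bounds 0.159 to 0.319), a 4.30-fold lower level on the FPKM scale and a log2 ratio of -0.71. More than the reference isoform went into that value. The full-length reference isoform had 0.411 FPKM (bounds 0.311 to 0.512) and 0.239 FPKM (bounds 0.159 to 0.319), so its bounds overlapped. By reference isoforms only the log2 ratio was -0.19. An assembled isoform of 578 bases had 0.611 FPKM under the Adar1-/- label. Fosl2 (chromosome 5, 32438845 to 32460204), which encodes FRA-2, had 1.30 FPKM (bounds 1.19 to 1.4) and 1.38 FPKM (bounds 0.963 to 1.80), so the bounds overlapped. Its log2 ratio was 0.05, and -0.12 when values were scaled to TPM, where the values of a library have a fixed sum. Its reference isoform alone had 1.14 FPKM (bounds 1.04 to 1.24) and 0.228 FPKM (bounds 0.170 to 0.287), a log2 ratio of -0.80, while 3 assembled isoforms under the Adar1-/- Mavs-/- label had 0.626, 0.278 and 0.245 FPKM. A further 7 assembled isoforms on the Fosl2 span in each library, summing to 6.33 and 6.34 FPKM, were counted under no gene. With these isoforms included the Fosl2 log2 ratio was 0.01. Fosb was close to 0 in both libraries, at 0.0118 and 0.0107 FPKM with overlapping bounds.

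Atf3 (chromosome 1, 192994175 to 193007219), a stress-induced factor that pairs with JUN proteins and is known mainly as a repressor, had 1.85 FPKM (bounds 1.23 to 2.59) and 0.473 FPKM (bounds 0.197 to 0.751). The log2 ratio was -0.96 and the level 3.94-fold lower under the Adar1-/- Mavs-/- label, with a widest range from the bounds of -1.59 to -0.35. A short reference isoform of 517 bases, of low-data status in both libraries, held 0.973 and 0.265 FPKM of these values, and with isoforms of status OK only the log2 ratio was -0.64. Assembled isoforms on the Atf3 span that were counted under no gene summed to 0.665 and 0.543 FPKM. With them included the log2 ratio was -0.81.

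Egr1 (chromosome 18, 35020861 to 35024638) had 2.40 FPKM (bounds 2.05 to 2.74) and 0.748 FPKM (bounds 0.60 to 0.896). The level was 3.22-fold lower under the Adar1-/- Mavs-/- label, with a log2 ratio of -0.96. Its reference isoforms summed to 1.52 and 0.194 FPKM, and assembled isoforms of 807 bases in one library and 2930 bases in the other held the rest. Ier2 (chromosome 8, 87185230 to 87186751) has 1 single-exon reference isoform of 1522 bases and, like Junb, no other isoform over it. It had 4.27 FPKM (bounds 3.90 to 4.64) and 1.26 FPKM (bounds 1.04 to 1.48), a 3.41-fold lower level and a log2 ratio of -1.23. Zfp36 (chromosome 7, 29161803 to 29164274) had the smallest difference among the 7 lower members, with 2.24 FPKM (bounds 1.95 to 2.53) and 1.36 FPKM (bounds 1.15 to 1.57) and a log2 ratio of -0.46. Its reference isoform had 1.59 and 1.36 FPKM with overlapping bounds, a log2 ratio of -0.14.

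**Figure D3:**
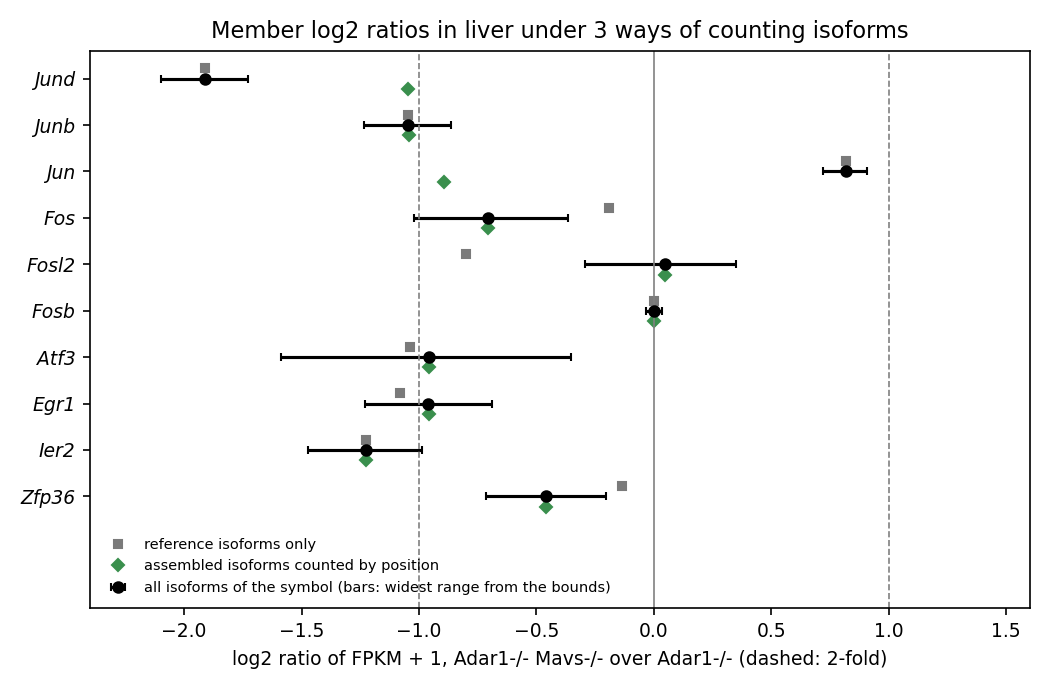
Log2 ratio of FPKM plus 1, Adar1-/- Mavs-/- over Adar1-/-, of each of the 10 genes in liver, with all isoforms of the symbol (black, bars give the widest range from the bounds), reference isoforms only (grey) and assembled isoforms counted by position (green); dashed lines mark 2-fold. Junb and Ier2 lie at about the same ratio under all 3 counts, whereas Jun moves from 0.82 to -0.89, Jund from -1.91 to -1.05 and Fosl2 from 0.05 to -0.80.

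In order of level, Jund stood above Junb, Junb above Ier2 and Ier2 above Egr1 under the Adar1-/- label, each with bounds apart from the next. From Egr1 down through Zfp36, Atf3 and Fosl2 to Fos, neighbours overlapped in their bounds. Under the Adar1-/- Mavs-/- label Jund again stood above Junb and Junb above Fosl2, with bounds apart. Fosl2, Zfp36 and Ier2 then overlapped from one to the next, as did Jun, Egr1, Atf3 and Fos after them, and Fosb was lowest of the genes above 0 in both libraries. Ier2 thus went from the third place to the fifth, and Fosl2 from the seventh to the third. Bounds do not tell Fosl2, Zfp36 and Ier2 apart under the Adar1-/- Mavs-/- label, so their order there is uncertain. Counted by position, Fosl2 was at place 8 under the Adar1-/- label. The Fosl2 reference isoform alone had 0.228 FPKM under the Adar1-/- Mavs-/- label. Jund lay above 79.1% of all counted genes under the Adar1-/- label and above 44.2% in the other. The 44.2% is for 4.72 FPKM, without the isoform under Gm11175, and by position Jund had 9.39 FPKM. Junb lay above 52.2% and 33.4% of counted genes, and Egr1 above 22.9% and 7.52%.

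Gene structure and sequence, which the choice by symbol did not use, varied among the 10 genes. Junb and Ier2 have single-exon reference isoforms only, as do 2.08% of 11286 counted protein-coding genes. Of such single-exon genes 9.79% were at least 2-fold lower, and of the others 9.29%. The matched reference isoforms of Jun and Jund are single exons too. These genes fell outside the single-exon count because a shorter reference isoform of each, placed by overlap, is not a single exon. RefSeq promoter windows (GRCm38.p6, a later build than the mm9 of the FPKM values) were matched for 8 of the 10 genes, the exceptions being Egr1 and Ier2. Sites of AP-1, ATF and serum response type were searched in the 250 bases before each start, since these genes are known to be driven by such sites and several answer to their own products. The following 4 windows, written 5′ to 3′ along the gene, are those with a match other than a GC box, EGR site or CCAAT box, and capitals mark the matches.
Fos, chr12:85473640-85473889, plus strand: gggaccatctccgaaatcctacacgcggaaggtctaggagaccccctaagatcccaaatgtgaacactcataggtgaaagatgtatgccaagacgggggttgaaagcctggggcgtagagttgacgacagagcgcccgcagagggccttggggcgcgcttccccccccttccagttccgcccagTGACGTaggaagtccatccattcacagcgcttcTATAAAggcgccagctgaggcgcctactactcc
Jun, chr4:95052223-95052472, minus strand: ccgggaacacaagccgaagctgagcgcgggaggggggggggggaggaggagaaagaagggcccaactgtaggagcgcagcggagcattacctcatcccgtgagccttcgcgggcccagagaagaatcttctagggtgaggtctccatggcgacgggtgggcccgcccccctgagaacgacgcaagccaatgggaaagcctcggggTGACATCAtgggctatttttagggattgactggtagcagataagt
Atf3, chr1:191183334-191183583, minus strand: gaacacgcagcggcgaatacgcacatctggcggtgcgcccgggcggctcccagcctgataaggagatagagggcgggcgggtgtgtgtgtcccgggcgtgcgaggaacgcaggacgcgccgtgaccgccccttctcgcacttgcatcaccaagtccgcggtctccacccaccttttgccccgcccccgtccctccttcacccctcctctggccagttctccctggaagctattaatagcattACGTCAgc
Zfp36, chr7:28379229-28379478, minus strand: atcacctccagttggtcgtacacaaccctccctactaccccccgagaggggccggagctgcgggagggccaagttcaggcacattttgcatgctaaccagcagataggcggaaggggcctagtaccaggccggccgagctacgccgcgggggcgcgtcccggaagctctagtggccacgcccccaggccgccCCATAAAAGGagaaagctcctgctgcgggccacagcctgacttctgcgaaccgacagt
The capitals in Fos are TGACGT, the first part of the cyclic AMP response element, 66 to 61 bases before the start, and the TATA box TATAAA 33 to 28 bases before it. In Jun they are TGACATCA, the AP-1 type site of this promoter, 45 to 38 bases before the start. In Atf3 they are ACGTCA, which is TGACGT on the other strand, 8 to 3 bases before the start. In Zfp36 they are a CArG box, the site of serum response factor, 58 to 49 bases before the start. TGACGT on either strand was in 6.46% of 32817 RefSeq promoter windows of the same length, TGACATCA in 2.93%, TATAAA on the gene's strand in 7.6% and a CArG box in 1.47%. The EGR site GCGNGGGCG was in 3 of the 8 windows (Fosb, Fosl2 and Zfp36) and in 4.70% of all, and it overlaps the GC box GGGCGG in Fosb and Fosl2. GC boxes were in 6 of the 8 windows and 32.7% of all, and the CCAAT box in 2 (Jun and Junb) and 33.8%. The CArG box of Zfp36 shares its first base with a GC box. TGANTCA, an AP-1 type string that takes any middle base and so is looser than the consensus site, was in 0 of the 8 and in 6.75% of all windows. The full element TGACGTCA was in 0 of the 8 and in 1.55% of all. A match is a string of letters and not a measured site. Sites more than 250 bases before a start were not searched, so a window without a match does not mean that the gene lacks the site. The Jund window precedes the longer reference isoform, which held the smaller part of the Jund signal.

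The mRNAs themselves carry AU-rich elements, the sequences that tristetraprolin binds. The nonamer TTATTTATT was in the 3' UTR of 3 of the 10 genes (Fos, Fosl2 and Zfp36), and in 7.66% of 21020 protein-coding genes, by the longest 3' UTR of each gene in GENCODE M21. The pentamer ATTTA, which the nonamer contains, was in 9 of the 10 and in 65.2% of all, with Ier2 as the exception. Each of the 3 genes has 1 such nonamer, shown in capitals with its flanks because it is the kind of site that tristetraprolin is known to prefer.
Fos: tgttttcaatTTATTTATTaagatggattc
Fosl2: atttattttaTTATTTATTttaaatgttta
Zfp36: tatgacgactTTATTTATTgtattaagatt
The Zfp36 mRNA thus holds the element that its own product is known to bind. The median log2 ratio was -0.16 over 880 counted genes with the nonamer and -0.17 over 10341 without it, and 6.82% and 9.50% were at least 2-fold lower.

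Embryos could be read for Fos alone. The embryo values cover chromosomes 10 and 11 and part of 12, to 11.7 Mb in the Adar1-/- library, and the Adar1-/- Mavs-/- values reach on through chromosome 12, which holds Fos. Fos had 0.394 FPKM (bounds 0.175 to 0.652) in that embryo library, with 3 of 4 reference isoforms above 0, of which the full-length isoform had 0.127 FPKM (bounds 0.0551 to 0.198). The livers had 1.02 and 0.239 FPKM, from tables normalized separately. No member could be compared between the embryo genotypes.

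Other genes of the pathway, 145 in 6 lists, were read in the same way. Of 103 counted in liver, 9 were at least 2-fold lower, 3 higher and 82 below 0 under the Adar1-/- Mavs-/- label, with a median of -0.37. Over all counted genes the shares were 9.76% and 6.56%, so by this scale the count of 2-fold genes was not above the background. Of all counted genes 58% were below 0, with a median of -0.12, so the related genes lay lower than these by both measures. With a pseudocount of 0.1, 24 of the 103 were lower, where 15.3% of all counted genes were. Scaling to TPM moved the median of all counted genes from -0.12 to -0.36, so ratios a little above 0 can change sign. With TPM, 24.7% of all 2-fold genes were higher, against 40.2% with the scaling used here, and 17 related genes were lower, where 13.9% of all counted genes were, and 3 higher.

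Among other AP-1 and related leucine zipper genes, 1 of 9 counted was at least 2-fold lower, 0 higher, and the median was -0.38. Mafg, a small MAF protein, had 9.82 and 3.75 FPKM (log2 ratio -1.19, at -0.65 by position and -0.96 with reference isoforms only). Jdp2, a repressor that pairs with JUN, had 3.67 and 1.52 FPKM (-0.89), and Maff had 2.79 and 1.16 (-0.81). The most abundant, Mafk and Atf2, were at -0.34 and 0.04, and Maf was at -0.36. Among 15 other immediate early transcription factors 1 was lower, 0 higher, and the median was -0.33. Cebpb, which encodes a factor of the acute phase response, had 13.5 FPKM and was listed at 0 under the Adar1-/- Mavs-/- label, so no fold is given. Cebpd was at -0.94 and Bhlhe40 at -0.80. Myc had 12.4 and 8.50 FPKM (-0.50), and Hes1, Per1 and Id2 were at -0.07, 0.20 and 0.31. Hes1 was at -0.69 and Per1 at -0.35 with reference isoforms only. By that count Bhlhe40 and Myc were past 2-fold lower, at -1.11 and -1.07.

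Of 27 signalling and feedback genes counted, 0 were lower or higher by 2-fold. The median was -0.45, and 25 lay below 0, where 58% of all counted genes did. Rhob, Zfp36l1 (a relative of Zfp36) and Gadd45a were lowest at -0.90, -0.89 and -0.88. Zfp36l1 was at -0.59 by position, and Gadd45a with reference isoforms only was at -1.25. Ppp1r15a, which dephosphorylates eIF2alpha with protein phosphatase 1, was the most abundant at 66.3 and 47.9 FPKM (-0.47). The MAP kinase phosphatase gene Dusp1, itself an immediate early gene, had 2.29 and 3.59 FPKM (0.48), and Sgk1 was at 0.65 but at -0.63 with reference isoforms only. Dusp10 was at -0.04, and at -0.45 with reference isoforms only.

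Upstream of AP-1, 33 MAP kinase and ternary complex genes were counted, of which 3 were lower and 2 higher, with a median of -0.28. Map2k1, which encodes the MAP kinase kinase MEK1, had 15.7 and 5.28 FPKM (-1.42), Map3k5 (ASK1) was at -1.29 but at -0.77 with reference isoforms only, and Elk3 had 5.94 FPKM and was listed at 0 under the Adar1-/- Mavs-/- label. Mapk8 (JNK1) was at 0.64 and Crem at 1.55. Map2k5 was listed at 0 under the Adar1-/- label and had 1.73 FPKM in the other library. Map2k4, an abundant kinase gene of the list, was at 0.18. Among 18 genes known as targets of AP-1 or EGR1, 3 were lower and 0 higher, with a median of -0.56. The lower genes were Mmp14, Mmp2 and Cd44 at -1.26, -1.14 and -1.07, and Cd44 was read from assembled isoforms alone. Plau, Plaur and Odc1 were at 0.09, 0.30 and 0.55 with overlapping bounds, and Hmox1 was at -0.56 but at 0.15 with reference isoforms only.

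Of 9 counted mRNAs that tristetraprolin is known to bind, a list that holds Zfp36 itself, 1 was lower and 1 higher, with a median of -0.46. Cxcl1, a chemokine gene, had 2.13 and 0.441 FPKM (-1.12, with reference isoforms alone 0.52), and Il1a was listed at 0 under the Adar1-/- label and had 4.28 FPKM in the other library. Vegfa, Pim1 and Mcl1 were at -0.61, -0.56 and -0.23, and Pim1 was at -3.49 with reference isoforms only, which were listed at 0 under the Adar1-/- Mavs-/- label. The bounds of Vegfa overlapped and were wide, from 10.5 to 419 FPKM under the Adar1-/- label. In embryos, 21 of the related genes were counted on the shared chromosomes, of which 2 were lower, 0 higher and 18 below 0 with a median of -0.33. Over 1915 counted embryo genes the shares were 9.82%, 6.42% and 58.6%, with a median of -0.12. The lower genes were Btg1, at 43.6 and 5.96 FPKM, and Ccl2, at 1.16 and 0.0265 FPKM, both chosen after their values were seen.

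**Figure D4:**
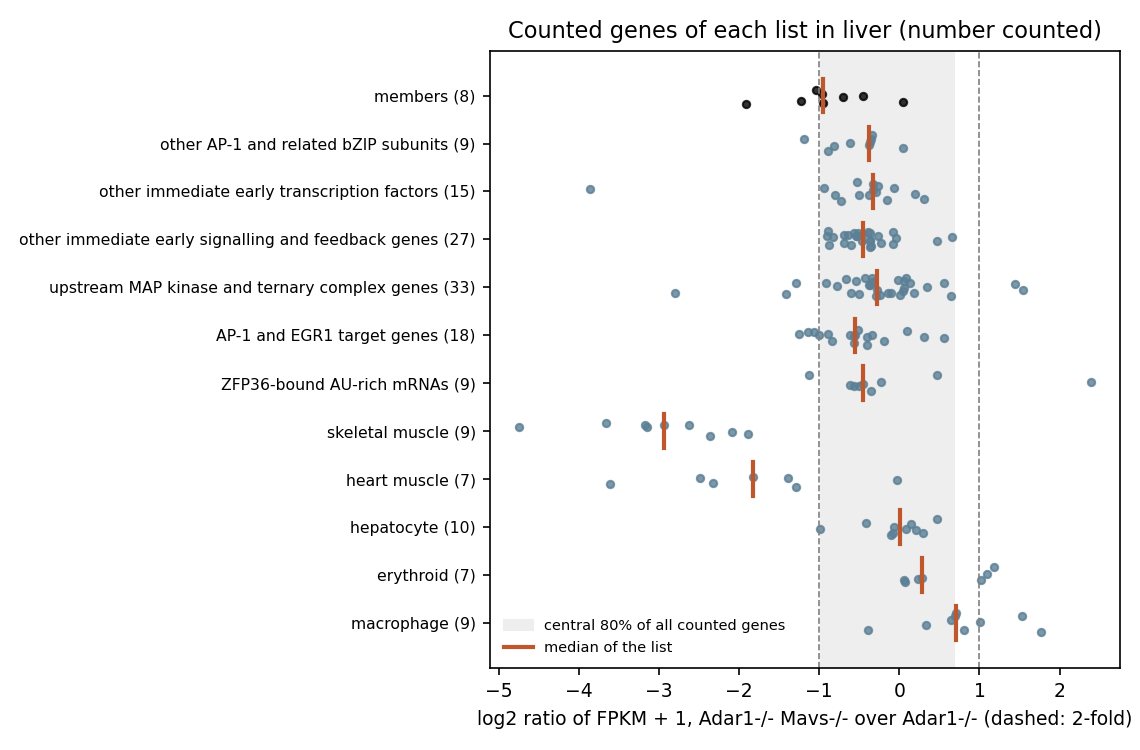
Log2 ratio of FPKM plus 1, Adar1-/- Mavs-/- over Adar1-/-, of the counted genes of each list in liver (number counted in parentheses); orange bars are list medians, the grey band runs from the 10th to the 90th percentile of all counted genes and dashed lines mark 2-fold. The members have a median of -0.96, the 6 related lists lie between -0.56 and -0.28, skeletal muscle lies at -2.94 and hepatocyte genes at 0.01.

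Markers of other cell types also differed between the liver libraries, some lower and some higher under the Adar1-/- Mavs-/- label. The skeletal muscle list summed to 151 and 9.90 FPKM over 11 genes, and each of its 9 counted genes was past 2-fold lower. Of its defining genes Myog had 3.35 and 0.0199 FPKM, Myod1 had 0.415 FPKM and was listed at 0 under the Adar1-/- Mavs-/- label, and Tnnc2 was listed at 0 in both libraries. Of 7 counted heart muscle genes 6 were lower, summing to 36.3 and 4.13 FPKM over 12 genes, and Myl2, Myl3, Nppb and Nkx2-5 were listed at 0 under the Adar1-/- Mavs-/- label. Fibroblast and related genes summed to 337 and 197 FPKM, endothelial genes to 94.3 and 62.4, and macrophage genes to 70.8 and 102 with 3 of 9 higher. Cartilage and limb genes summed to 20.6 and 5.35 FPKM with 3 of 4 lower, and erythroid genes to 2142 and 2881 FPKM with 3 of 7 higher. Megakaryocyte genes summed to 70.3 and 131 FPKM, with 1 lower and 1 higher of 5 counted. The AP-1 and immediate early genes are known to be expressed in muscle and stromal cells as well as in hepatocytes and blood cells, and the part of these cells in the differences above was not tested.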

How the data were processed

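Total RNA was sequenced from 4 libraries, 1 per group. Per the submitters' processing notes, the work used TopHat 1.4.0 and Cufflinks 2.2.1 on mm9, tools whose roles the notes do not give. The deposited values are FPKM per isoform with a lower and an upper bound and a status, and coverage, the mean read depth of an isoform, per the file headers. The sources used here do not give read totals, strand, or how duplicate and multiply mapped reads were treated.

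Symbols came from GENCODE M21 (86.7% of reference identifiers matched in each liver library), and all positions of values are mm9. An isoform without a symbol was counted under the symbol it overlapped best within its Cufflinks gene, FPKM were summed per symbol, and bounds were combined as the root of summed squares. In liver, 41.9% and 39.8% of length-weighted FPKM lay in isoforms with no symbol, which entered no gene. Log2 ratios are of FPKM plus a pseudocount of 1, after 1 factor (0.995 in liver, from 6891 genes of at least 5 FPKM in both libraries, and 1.34 in embryos) was applied to the library labelled Adar1-/- Mavs-/-. A gene was counted from 1 FPKM upward in 1 or both libraries, and 2-fold is a log2 ratio of 1 in size. An exact 0 can be a failed estimate.

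There was no test, since no group has a replicate. The ratio step was tested on simulated data. The position count gave an isoform to the symbol it overlapped by at least 50% on either strand. Of 12 alternatives 2 were added after seeing the data, this one and weighting by isoform length. The genes and lists were chosen with earlier results of these data known. Named genes are all members, and per list the 3 lowest and 3 highest ratios, the 2 highest levels and genes listed at 0 in 1 library. Of these, 1 gene is not reported here. Work used Python 3.11.15 and pandas 2.3.3.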

Additional observations from a re-analysis of the deposited data

Results flagged for a closer look

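Signal over Jun and Jund lay outside the values of these genes. In the liver library labelled Adar1-/-, an assembled isoform over 94.6% of Jun had 2.27 FPKM (bounds 2.09 to 2.46) and stood under the antisense gene Junos. In the liver library labelled Adar1-/- Mavs-/-, an assembled isoform over 58.0% of Jund had 4.67 FPKM (bounds 4.18 to 5.15) and stood under the antisense gene Gm11175. Both are single-exon isoforms.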

How the results depend on the processing

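Junb, Jund, Ier2, Egr1, Atf3, Fos and Zfp36 kept a log2 ratio below 0 under all 12 alternatives, and Junb and Jund were at least 2-fold lower in each, as was Ier2 wherever it was counted. Fosl2 ran from -0.80 to 0.08 and Jun from -0.89 to 3.11. With a pseudocount of 0.1, 6 members were lower with a median of -1.63, 24 related genes were lower, and so were 2115 of all genes against 1353. With a pseudocount of 0.5, 6 members and 14 related genes were lower, where 12.2% of all counted genes were. Among genes of at least 5 FPKM, 2 members were left with a median of -1.48, 807 of all genes were lower and 534 higher (against 910), and 1 related gene was higher. With TPM 17 related genes were lower, where 13.9% of all counted genes were. The higher share of all 2-fold genes was then 24.7% against 40.2%. With reference isoforms only, 5 members were lower, and 15 related genes were lower and 5 higher. Of all 11449 genes counted that way, 17.0% were lower and 761 genes were higher. With isoforms of status OK only, 12 related genes were lower and 5 higher. Of all 11457 genes counted that way, 12.3% were lower and 1204 genes were higher. The pseudocount acts on low values and the higher minimum leaves fewer genes, both by construction, and the cause of the other shifts was not tested. Fos in the embryo library was at 0.127 FPKM with status OK only. No paired analysis was possible because each group has 1 library, and for the same reason no library could be left out. Distances from a value to its bound had a median of 10.2% and 11.7% of the value for liver genes of 1 to 5 FPKM.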

Other observations

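The inducible heat shock genes Hspa1b and Hspa1a, which like immediate early genes respond within minutes to stress, had 13.2 and 4.24 FPKM in the liver library labelled Adar1-/- and 0.252 and 0.125 FPKM in the library labelled Adar1-/- Mavs-/-. They are near-identical copies, so the split between them is uncertain. Of the 10 heat shock genes read, 3 were at least 2-fold lower (the third was Hspb1, at 2.22 and 0.345 FPKM) and 1 was higher (Hspe1, at 2.23 and 41.9 FPKM), with a median log2 ratio of -0.15. The constitutive Hspa8 had 941 and 1026 FPKM.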
